A study of Mus musculus with 8 samples.

Results

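The 10 activity-induced genes followed across neuron types and surgeries in perilesional mouse forebrain were Arc, Egr1, Egr3, Egr4, Npas4, Nr4a1, Nr4a2, Nr4a3, Dusp1 and Homer1. They were chosen by symbol, and all 10 were found among the 54232 genes of the deposited feature lists. Single-nucleus RNA was sequenced in 8 libraries from male Swiss Webster mice aged 10 weeks, with 2 libraries in each of 4 groups. The groups are control, BCAS, TBI (traumatic brain injury) and the combination, BCAS+TBI. The labels give BCAS only as an abbreviation, which the study's title links to cerebral hypoperfusion, and they state neither the time from surgery to collection nor what was done to the control animals. No transgene or allele is named for any group. Replicates are called biological in the labels, which do not say how many animals each library holds.

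Most of these genes are switched on within minutes of synaptic input or growth factor signalling, without new protein synthesis. Calcium and MAP kinase pathways act on CREB, SRF and MEF2 at their promoters. In cortex and hippocampus they are widely used as a record of recent neuronal firing, and strong injury-related activity can also induce them. Arc encodes a protein of the postsynaptic density that drives removal of AMPA receptors from synapses, and Homer1 a scaffold that links metabotropic glutamate receptors to internal calcium stores. Egr1, Egr3 and Egr4 are zinc-finger transcription factors, Npas4 is a neuronal transcription factor that answers calcium entry, and Nr4a1, Nr4a2 and Nr4a3 are orphan nuclear receptors. Dusp1 encodes a phosphatase that switches off MAP kinases.

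On GRCm38 with GENCODE M21 annotation, Arc lies at chr15:74669083-74672570 (minus strand) and Egr1 at chr18:34859823-34864984 (plus strand). Dusp1 lies at chr17:26505590-26562128 (minus strand), where other annotated genes overlap it on both strands, so its counts are uncertain. Homer1 is overlapped by 2 annotated genes on its own strand, so its counts are uncertain as well.

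Nuclei were assigned to types by marker genes that exclude the 10 genes. Of 45560 nuclei analysed, 18210 were gated as excitatory, 4056 as inhibitory and 867 as striatal projection neurons. Each library gave 1738 to 3528 excitatory nuclei. Counts of unique molecular identifiers (UMIs) were summed per library and type, and levels are given in CPM, the UMIs of a gene per 1000000 UMIs of that type. CPM is not corrected for gene length, so levels are compared between libraries or types and not between genes. In such sums a different mix of nuclei within a type and less RNA per nucleus cannot be told apart. Libraries fell into 2 sets by total UMIs, with 1 library of each group in each: set 1 (control 1, BCAS 1, TBI 1 and BCAS+TBI 2) held 28118725 to 33363564 UMIs and set 2 (control 2, BCAS 2, TBI 2 and BCAS+TBI 1) held 42651388 to 56135192. Deviations from the group means in excitatory nuclei correlated between libraries of the same set at 0.66 to 0.76. What distinguishes the sets is not given in the labels, so fitted values are given without and with the set as a block. The mitochondrial share of UMIs was 1.20 to 2.77% in set 1 and 0.511 to 1.04% in set 2, with BCAS 2 at 0.759%. Between 57 and 92 barcodes of a library also occurred in another library.

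The promoters of 7 of the 10 genes were present in the RefSeq table for GRCm38.p6, each from 250 bases before to 50 bases after a start site. Those of Arc, Egr1 and Egr3 were not analysed here. All 7 held at least 1 CRE half-site, the letters TGACG on either strand, the core of the sequence that CREB binds. Of all 32851 promoters of that length, 20.8% held it. Dusp1 alone of the 7 held the full palindrome TGACGTCA, which contains the half-site on both strands and occurred in 1.79% of all promoters. No CArG box, the element bound by SRF, lay in these windows, against 1.63% of all promoters. Another listed start site of Homer1 had no half-site. The sequences below are 4 of these promoters, shown because they hold the half-sites, with the half-sites in capitals. They lie at chr6:85513540-85513839 (minus strand, Egr4), chr19:4989922-4990221 (minus strand, Npas4), chr15:101266596-101266895 (plus strand, Nr4a1) and chr17:26508423-26508722 (minus strand, Dusp1).
Egr4: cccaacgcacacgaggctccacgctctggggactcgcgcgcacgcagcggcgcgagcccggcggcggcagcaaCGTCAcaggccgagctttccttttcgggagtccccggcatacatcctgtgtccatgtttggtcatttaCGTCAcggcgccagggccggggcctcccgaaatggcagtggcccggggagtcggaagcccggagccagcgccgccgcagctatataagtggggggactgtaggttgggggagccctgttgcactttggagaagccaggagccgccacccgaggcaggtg
Npas4: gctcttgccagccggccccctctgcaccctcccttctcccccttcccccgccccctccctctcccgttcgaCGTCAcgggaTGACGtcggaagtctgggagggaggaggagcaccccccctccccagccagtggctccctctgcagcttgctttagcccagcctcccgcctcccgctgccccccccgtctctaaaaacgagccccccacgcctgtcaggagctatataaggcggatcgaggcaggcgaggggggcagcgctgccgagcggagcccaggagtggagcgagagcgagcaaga
Nr4a1: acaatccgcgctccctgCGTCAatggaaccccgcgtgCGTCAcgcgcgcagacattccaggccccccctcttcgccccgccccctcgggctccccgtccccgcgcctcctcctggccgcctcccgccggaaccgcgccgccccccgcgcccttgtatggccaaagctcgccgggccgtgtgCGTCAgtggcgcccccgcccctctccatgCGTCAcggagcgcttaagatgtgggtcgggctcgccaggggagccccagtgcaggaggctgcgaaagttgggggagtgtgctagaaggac
Dusp1: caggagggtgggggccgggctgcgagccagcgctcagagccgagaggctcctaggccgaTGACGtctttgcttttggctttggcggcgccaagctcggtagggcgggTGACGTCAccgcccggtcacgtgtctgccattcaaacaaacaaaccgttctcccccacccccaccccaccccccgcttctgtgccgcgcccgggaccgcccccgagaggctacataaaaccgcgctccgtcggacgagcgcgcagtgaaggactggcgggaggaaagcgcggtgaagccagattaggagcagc
These matches describe letters in the window and say nothing of whether a factor was bound in these nuclei.

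The 10 genes were higher in excitatory than in inhibitory nuclei. Arc averaged 22.9 ± 5.74 CPM (SD, n = 8 libraries) in excitatory and 3.36 ± 1.78 CPM in inhibitory nuclei. The fitted log2 difference for Arc was 2.87 (SE 0.16, adjusted p = 1.43e-14, edgeR quasi-likelihood test over all genes with library as a term), and it was higher in 8 of 8 libraries. All 10 genes passed, with log2 differences from 0.61 for Dusp1 to 2.87 for Arc. In the same test 25.1% of all 16929 genes were higher in excitatory nuclei. Oligodendrocyte-gated nuclei, which should lack Arc, held 2 to 8 Arc UMIs per library, or 3.30 to 14.8 CPM. The inhibitory range, 1.94 to 7.49 CPM, was not above it, so Arc is not read as expressed in inhibitory nuclei. Mean inhibitory levels of Egr3 (4.08 CPM), Egr4 (1.01 CPM) and Nr4a2 (4.28 CPM) were likewise not above those in oligodendrocyte nuclei (4.74, 1.58 and 5.06 CPM), so the genes are not ranked by these differences.

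Within the excitatory class most of the 10 genes were higher in the cortical types than in thalamic nuclei, to differing degrees. Nr4a1 averaged 72.0 CPM in cortical and 32.4 CPM in thalamic nuclei, and Nr4a3 23.5 and 11.4 CPM. Over the 4 cortical types together Arc averaged 31.5 CPM and in thalamic nuclei, where it was counted in 1 to 8 UMIs per library, 1.45 CPM. The fitted log2 difference was 4.57 (SE 0.19, edgeR adjusted p = 1.83e-15), higher in cortical nuclei in 8 of 8 libraries. Thalamic means of Arc, Egr3 (1.92 CPM) and Egr4 (0.85 CPM) were not above the levels in oligodendrocyte nuclei. The sizes of their differences are therefore not read. 9 of the 10 genes passed in this comparison, where 26.2% of 14459 genes were higher in cortical nuclei. The exception was Dusp1, with 11.3 CPM in cortical and 10.6 CPM in thalamic nuclei, higher in cortical nuclei in 3 of 8 libraries (log2 difference 0.16, SE 0.15, edgeR adjusted p = 0.375). Both comparisons between types were added after the data had been seen.

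Among neuron types, Arc was highest in layer 6 corticothalamic nuclei, which project to the thalamus, at 51.1 ± 14.8 CPM (SD, n = 8), followed by mid-layer nuclei at 45.0 ± 20.3 CPM. Their ranges, 22.2 to 69.4 and 18.2 to 76.2 CPM, overlapped, although layer 6 was above mid-layer in 7 of 8 libraries. Upper-layer and layer 5 nuclei followed at 25.2 and 23.3 CPM and were not separated, with upper-layer above in 5 of 8 libraries. Egr1 had the opposite order at the top, 76.7 ± 25.9 CPM in mid-layer and 60.6 ± 17.6 CPM in layer 6 nuclei. Egr3 was about equal in mid-layer and upper-layer nuclei, at 26.7 and 26.5 CPM, and Egr4 averaged from 4.82 CPM in layer 6 to 11.1 CPM in mid-layer nuclei. Npas4 reached 22.8 ± 12.4 CPM in Drd2 striatal neurons, the cells of the indirect pathway, where only 2 to 7 UMIs per library were counted, and 18.6 CPM in mid-layer nuclei. Drd2 was above mid-layer in 4 of 8 libraries, so these types were not separated.

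The nuclear receptors differed from one another by type. Nr4a3 was highest in CA pyramidal nuclei of the hippocampus, at 72.4 ± 20.6 CPM. Its lowest library there, 46.5 CPM, lay above the highest library of the next type, layer 5, at 39.5 CPM. Nr4a2 was highest in layer 6 corticothalamic and upper-layer nuclei, at 41.8 ± 7.90 and 41.3 ± 12.97 CPM, and was 7.27 CPM in mid-layer nuclei, where Nr4a1 was highest at 97.6 ± 23.7 CPM. Mid-layer Nr4a2 rested on 1 to 11 UMIs per library. Cortical means of Homer1 had the same order as those of Arc, with 607 ± 196 CPM in layer 6 and 572 ± 192 CPM in mid-layer nuclei. Layer 6 was above mid-layer in 4 of 8 libraries, so these types were not separated. Homer1 averaged 88.7 ± 11.3 CPM in thalamic nuclei. The counts do not separate its activity-induced short form from the constitutive long forms.

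**Figure D1:**
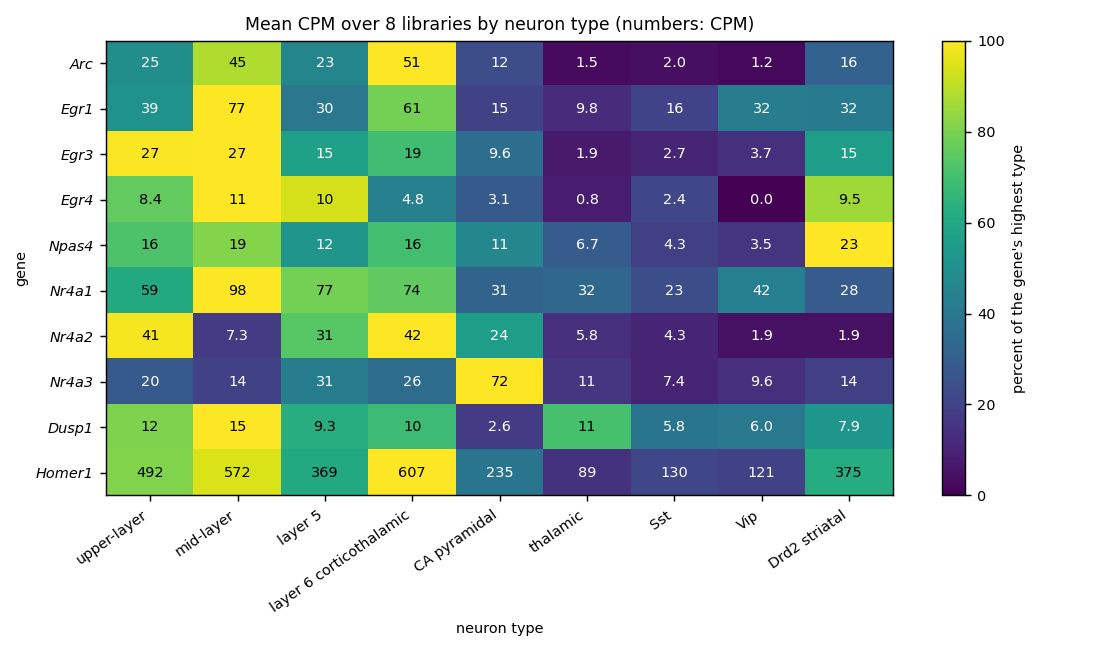
Heat map of the 10 genes (rows) in 9 neuron types (columns); numbers are mean CPM over 8 libraries and colour is the percent of each gene's highest type. Most genes have their highest mean in cortical types, and Nr4a3 in CA pyramidal nuclei. The highest mean of Npas4, in Drd2 striatal neurons, was not separated from that in mid-layer nuclei.

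The surgeries were compared first over all excitatory nuclei. Arc measured 23.1 and 30.6 CPM in control 1 and 2, 18.4 and 11.96 CPM in BCAS 1 and 2, 22.9 and 24.0 CPM in TBI 1 and 2, and 28.2 and 24.4 CPM in BCAS+TBI 1 and 2. Both BCAS libraries were below the 6 others, while the other 3 groups overlapped. Egr1 measured 31.8 and 41.0 CPM in the controls, 31.3 and 22.1 in BCAS, 41.3 and 33.7 in TBI, and 41.9 and 35.4 in BCAS+TBI. Its BCAS libraries were again the lowest of the 8, although BCAS 1 was close to control 1. These were the only 2 of the 10 genes with both BCAS libraries below all others, a pattern found in 0.852% of the 20667 genes tested in this class.

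Egr3 measured 19.2 and 15.04 CPM in control 1 and 2, 18.9 and 9.49 in BCAS, 15.9 and 17.02 in TBI, and 15.5 and 20.4 in BCAS+TBI. Egr4 measured 7.42 and 4.52 CPM in control 1 and 2, 7.75 and 2.47 in BCAS, 7.36 and 5.07 in TBI, and 7.16 and 8.62 in BCAS+TBI. Npas4 measured 13.01 and 13.2 CPM in control 1 and 2, 13.2 and 6.4 in BCAS, 15.3 and 13.2 in TBI, and 15.4 and 10.98 in BCAS+TBI. In all of these BCAS 2 was the lowest library, while BCAS 1 lay among the others. Nr4a1 measured 58.1 and 58.5 CPM in control 1 and 2, 56.2 and 41.3 in BCAS, 54.5 and 66.96 in TBI, and 62.99 and 56.6 in BCAS+TBI. Nr4a2 measured 23.00 and 23.3 CPM in control 1 and 2, 30.6 and 21.96 in BCAS, 28.1 and 24.9 in TBI, and 22.4 and 31.95 in BCAS+TBI. Nr4a3 measured 23.6 and 19.02 CPM in control 1 and 2, 27.03 and 21.3 in BCAS, 22.01 and 29.4 in TBI, and 25.3 and 24.6 in BCAS+TBI. BCAS 2 was the lowest for Nr4a1 and, by a small margin, for Nr4a2, and for Nr4a3 control 2 was the lowest. Dusp1, the MAP kinase phosphatase, measured 11.5 and 8.12 CPM in control 1 and 2, 9.18 and 4.98 in BCAS, 10.5 and 8.28 in TBI, and 8.96 and 14.3 in BCAS+TBI. Homer1 measured 279 and 461 CPM in control 1 and 2, 245 and 378 in BCAS, 246 and 428 in TBI, and 452 and 367 in BCAS+TBI. Homer1 differed more between library sets than between groups, and within each set its BCAS library was the lowest.

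All 10 genes passed the filter on low counts in excitatory nuclei, and 2 to 10 of them did in the neuron types. Against control, the fitted log2 change of Arc in BCAS was -0.88 (SE 0.28) without and -0.89 (SE 0.19) with the library set as a block. The edgeR adjusted p-values were 1 and 0.793, so the difference did not pass. In this contrast 0% of 44129 class-gene pairs passed in either fit. 1 gene of the 10 without the block and 4 with it had an unadjusted p under 0.05, beside 0.445% and 4.08% of genes in the class. Egr1 changed by -0.50 (SE 0.25) and Dusp1 by -0.51 (SE 0.31), and neither passed. Over the 10 genes 8 had a value below 0, with a median of -0.30 against -0.01 over all genes. The values were above 0 for Nr4a2, at 0.14 (SE 0.20), and Nr4a3, at 0.16 (SE 0.24).

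The lower values came largely from 1 library. BCAS 2 was the lowest of the 8 libraries for 8 of the 10 genes, a position it held for 22.0% of all genes tested. In set 1, BCAS 1 and control 1 held nearly equal Npas4 (13.2 and 13.01 CPM), Egr3 (18.9 and 19.2 CPM), Egr4 (7.75 and 7.42 CPM) and Nr4a1 (56.2 and 58.1 CPM). In set 2, BCAS 2 and control 2 held 6.40 and 13.2 CPM of Npas4, 9.49 and 15.04 CPM of Egr3, 2.47 and 4.52 CPM of Egr4, and 41.3 and 58.5 CPM of Nr4a1. Without BCAS 2 the value for Egr3 against control became 0.03 and that for Egr4 0.27. For Arc it stayed below 0, at -0.69 without the block and -0.46 with it. The level of Arc in BCAS was 79.9% of control within set 1 and 39.1% within set 2.

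**Figure D2:**
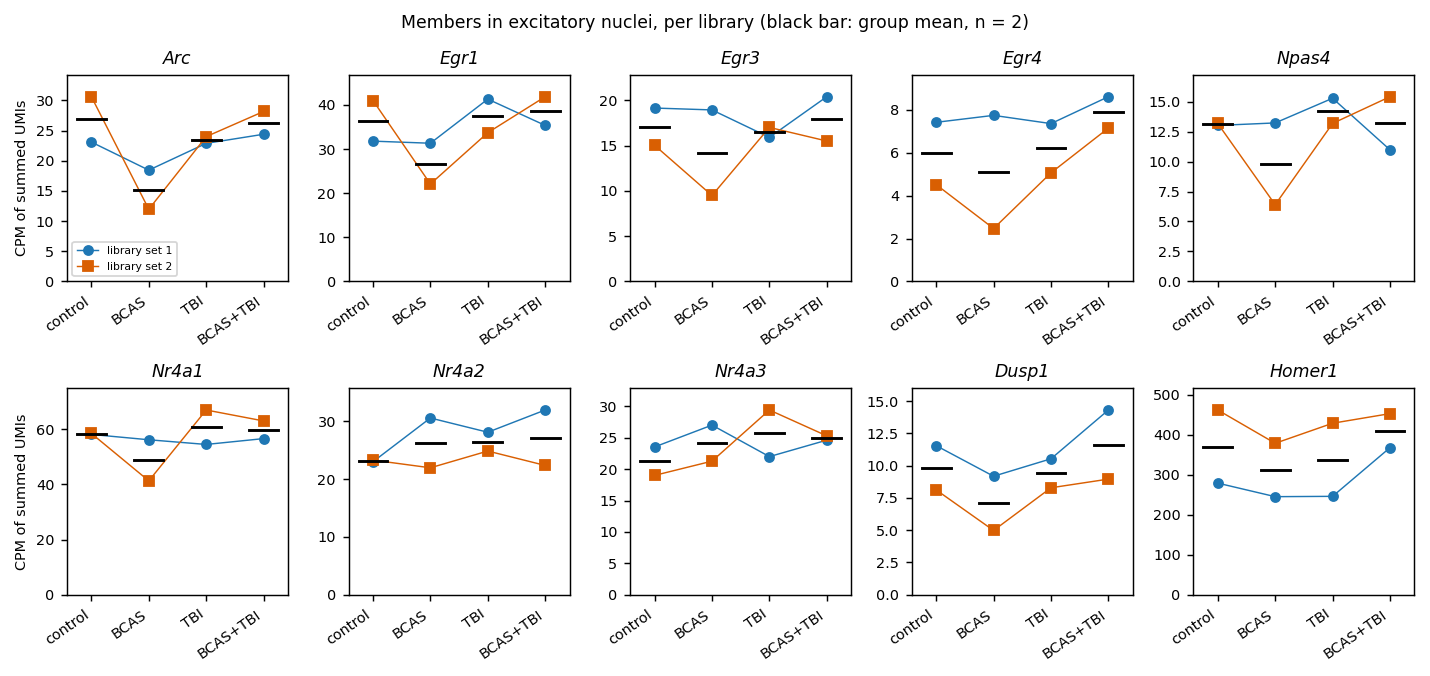
CPM of each gene in excitatory nuclei (y axis, from 0) by group (x axis); circles and squares are the libraries of sets 1 and 2, lines join a set and black bars are group means. BCAS of set 2 is the lowest library for 8 of the 10 genes, and both BCAS libraries are lowest for Arc and Egr1.

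BCAS+TBI was higher than BCAS for all 10 genes in fitted value, a comparison added after the data had been seen. The median was 0.44 against 0.01 over all genes. It was higher in both library sets for 8 of the 10, as for 28.0% of all genes. Arc was higher by 0.83 (SE 0.28) without and 0.83 (SE 0.19) with the block, and its edgeR adjusted p-values were 1 and 0.793. Dusp1 was higher by 0.74 (SE 0.31), Egr4 by 0.70 (SE 0.47) and Egr1 by 0.57 (SE 0.25). Without BCAS 2, and without the block, the values were 0.64 for Arc, 0.44 for Dusp1, 0.135 for Egr4 and 0.43 for Egr1. The same BCAS libraries enter BCAS against control, so the 2 comparisons are not separate results. None of the 10 passed in either fit or with DESeq2, where 0% of 44129 class-gene pairs passed without and 0.00453% with the block. 2 of the 10 genes had an unadjusted p under 0.05 without the block, against 0.392% of all genes in the class, and 6 with it, against 5.96%. In set 1, BCAS+TBI 2 was above BCAS 1 by 0.40 on the log2 scale for Arc and 0.64 for Dusp1, and by 0.01 for Nr4a1. The value for Npas4 there was -0.27.

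Non-additivity was asked by the interaction, the change with TBI in BCAS animals minus the change with TBI in controls. For Arc the interaction was 1.03 (SE 0.39) on the log2 scale without and 1.03 (SE 0.27) with the block, with edgeR adjusted p-values of 1 and 0.996. The TBI change itself was -0.01 and -0.35 in sets 1 and 2 without BCAS and 0.40 and 1.24 with it. Dusp1 had an interaction of 0.78 (SE 0.44), Egr4 of 0.62 (SE 0.66), Egr1 of 0.54 (SE 0.36) and Homer1 of 0.51 (SE 0.67). Nr4a2 and Nr4a3 were on the other side of 0, at -0.14 and -0.24. The interaction also uses the BCAS libraries of the contrasts above and is not a separate result. Without BCAS 2, and without the block, it was 0.84 for Arc, 0.48 for Dusp1, 0.06 for Egr4, 0.40 for Egr1 and 0.99 for Homer1. For Egr3 and Npas4 it went from 0.40 and 0.37 with all libraries to 0.06 and 0.01. None of the 10 passed without the block, where 0% of class-gene pairs did, and none passed with it or with DESeq2. 1 gene without the block and 3 with it had an unadjusted p under 0.05, against 0.334% and 4.65% of all genes in the class. Neither TBI against control, BCAS+TBI against control, nor BCAS+TBI against TBI gave a gene of the 10 that passed in either fit. In each of these 0% of class-gene pairs passed without and 0.00227% with the block. The genes of the 10 with an unadjusted p under 0.05 were 0 in TBI against control (background 0.227% without and 2.81% with the block), 0 in BCAS+TBI against control (0.281% and 3.01%), and 0 without and 1 with the block in BCAS+TBI against TBI (0.232% and 4.27%).

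**Figure D3:**
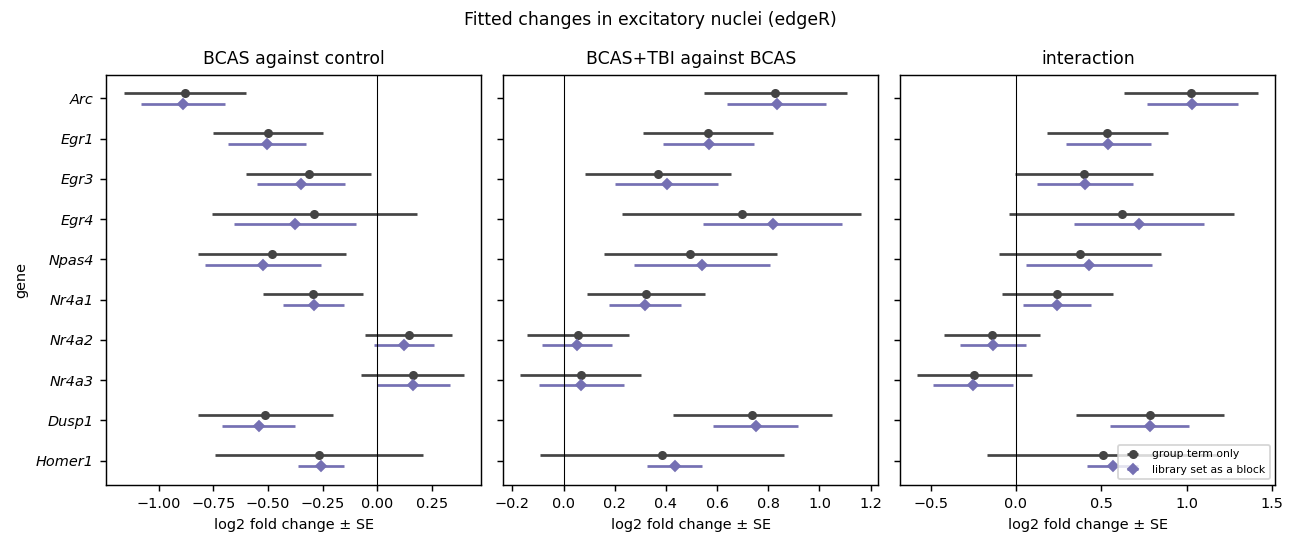
Fitted log2 fold changes (x axis, points) with 1 standard error (bars) for the 10 genes in excitatory nuclei, in 3 contrasts, without and with the library set as a block. Arc lies farthest from 0 in all 3 contrasts and none of the values passed the adjusted threshold.

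Arc was also read in the 4 cortical types. In layer 5 nuclei it measured 28.0 and 28.8 CPM in control 1 and 2, 17.2 and 10.5 in BCAS, 31.1 and 26.4 in TBI, and 21.7 and 22.7 in BCAS+TBI 1 and 2. In upper-layer nuclei it measured 27.0 and 35.4, 14.6 and 15.2, 16.2 and 28.2, and 38.3 and 26.3 CPM in the same order. Both BCAS libraries were the lowest of the 8 in each of these types and in layer 6 corticothalamic nuclei, at 41.2 and 22.2 CPM. In mid-layer nuclei TBI 1 was lowest at 18.2 CPM, followed by BCAS 2 at 19.1 CPM. The layer 6 change in BCAS against control was -1.09 (SE 0.31) without and -1.19 (SE 0.23) with the block, and the edgeR adjusted p with the block was 0.0627. Without the block it was 1.

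The upper-layer interaction for Arc was 1.59 (SE 0.53) without and 1.61 (SE 0.28) with the block, with edgeR adjusted p-values of 1 and 0.059. None of the 10 genes passed in any of the 9 neuron types. With the block 0.0274% of 91338 class-gene pairs passed in BCAS against control, 0.0109% in BCAS+TBI against BCAS, 0.0339% in the interaction, 0.0263% in TBI against control, 0.00547% in BCAS+TBI against control and 0.0186% in BCAS+TBI against TBI, and 0% passed without it. Of 59 pairs of one of the 10 genes and a type, 9 had an unadjusted p under 0.05 in BCAS against control without and 17 with the block, beside 0.73% and 4.12% of all pairs. In BCAS+TBI against BCAS these were 11 and 29 pairs, beside 0.843% and 5.14%, and in the interaction 5 and 16 pairs, beside 0.819% and 4.97%. Leaving out 1 library leaves its group with 1 library, so only the sizes are given. For Arc in excitatory nuclei in BCAS against control, the fit with the block gave -1.26 without BCAS 1. Leaving out BCAS 2 instead gave -0.46 there.

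Egr1 in layer 5 nuclei measured 40.9 and 34.9 CPM in control 1 and 2, 20.2 and 17.5 in BCAS, 41.4 and 27.8 in TBI, and 31.5 and 29.7 in BCAS+TBI. Both BCAS libraries were the lowest, and both lay far below the controls. The change against control was -1.03 (SE 0.26) without and -1.03 (SE 0.22) with the block, with edgeR adjusted p-values of 1 and 0.225, and without BCAS 2 it was -1.07 with the block. 4 of the 10 genes had both BCAS libraries lowest in layer 5 nuclei, against 1.46% of the 13247 genes tested there. The count was 2 of 10 in upper-layer nuclei (1.41% of all genes), 2 of 10 in layer 6 corticothalamic nuclei (1.87%) and 0 of 10 in mid-layer nuclei (1.62%). In mid-layer nuclei Egr1 did not follow, with 82.2 CPM in BCAS 1 and 39.0 in BCAS 2 beside 51.7 and 92.5 CPM in the controls.

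**Figure D4:**
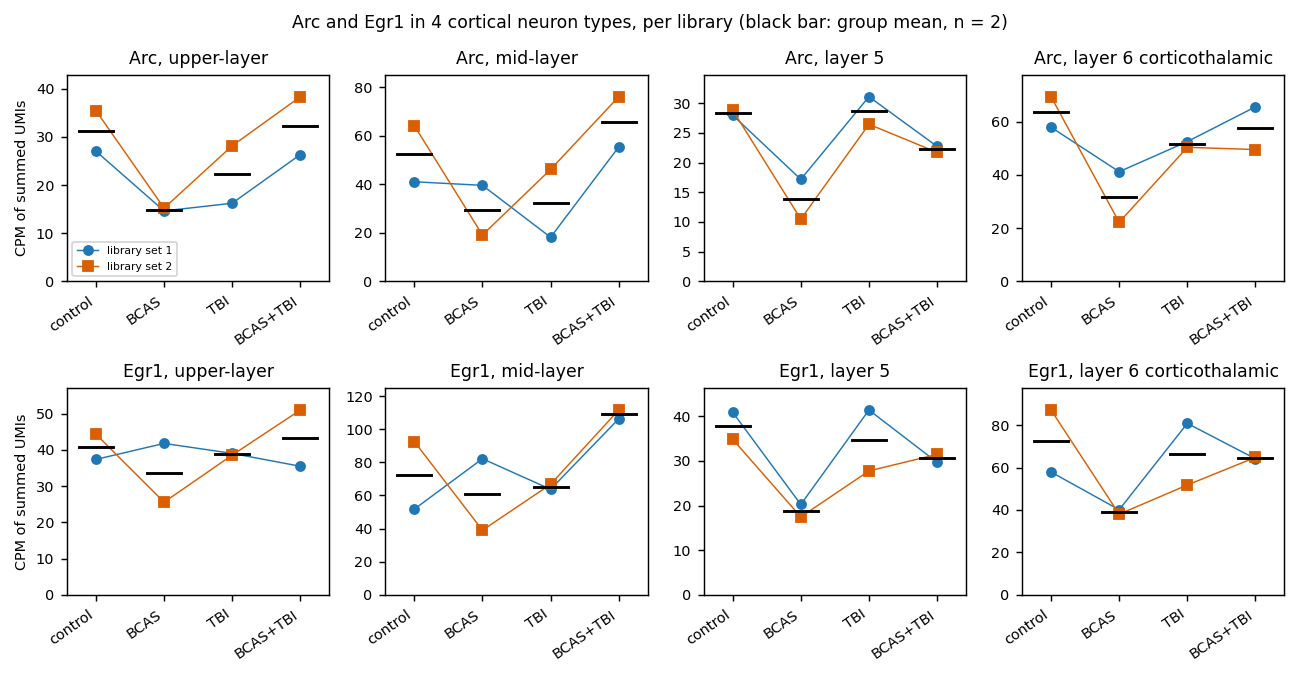
CPM of Arc and Egr1 (y axes, from 0) by group (x axis) in 4 cortical neuron types; circles and squares are the libraries of sets 1 and 2 and black bars are group means. Both BCAS libraries are lowest for Arc in upper-layer, layer 5 and layer 6 corticothalamic nuclei, and for Egr1 in layer 5 and layer 6 corticothalamic nuclei.

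The following values in Vip interneurons were chosen after they had been seen and rest on few UMIs. Egr1 measured 18.8 and 14.6 CPM in control 1 and 2, 9.59 and 9.08 in BCAS, 34.7 and 59.4 in TBI, and 77.6 and 34.6 in BCAS+TBI, from 2 to 31 UMIs. All 4 libraries with TBI were above all 4 without. The share of all genes with this order was not counted, so the order is not read as an effect of TBI. Of the 10 genes 3 were tested in Vip nuclei. In TBI against control their smallest edgeR adjusted p with the block was 0.582. BCAS+TBI exceeded BCAS by 2.62 (SE 0.63) without and 2.69 (SE 0.56) with the block, with edgeR adjusted p-values of 1 and 0.092. In oligodendrocyte nuclei Egr1 measured 8.48 and 14.9 CPM in control 1 and 2, 0 and 9.88 in BCAS, 8.80 and 23.3 in TBI, and 18.5 and 25.2 in BCAS+TBI, from 0 to 10 UMIs. The Vip levels in control 1, control 2 and both BCAS libraries lay within this range, and the part of RNA from other cells in the Vip difference was not tested.

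Single nuclei were compared after each was thinned to 2000 UMIs, which left out 332 of 18210 excitatory nuclei. The share with at least 1 UMI of Arc was 4.49 and 5.81% in control 1 and 2, 3.73 and 2.37% in BCAS, 3.80 and 4.71% in TBI, and 5.48 and 4.68% in BCAS+TBI. The unthinned shares were 8.32 to 18.3%, with a median of 4743 to 9088 UMIs per excitatory nucleus. In inhibitory nuclei thinned alike the share with Arc was 0.193 to 1.14%. In the 570 oligodendrocyte nuclei that reached this depth it was 0 to 5.13%, counted in 39 to 135 nuclei a library. That range overlapped the excitatory one, so the shares are not read as the proportion of nuclei that express Arc.

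Nuclei with at least 2 of the 9 genes other than Homer1 made up 7.13 and 7.53% of excitatory nuclei in control 1 and 2, 7.31 and 7.71% in TBI, and 8.56 and 7.36% in BCAS+TBI. They made up 7.14% in BCAS 1 (95% exact interval 6.03 to 8.38%) and 3.06% in BCAS 2 (2.40 to 3.84%), intervals that cover counting error only. Without thinning the shares were 24.4% in BCAS 2 and 21.5 to 33.3% in the others. The thinned share was lowest in BCAS 2, while its unthinned share lay within the range of the other libraries. At least 3 genes were found in 0.431% of nuclei in BCAS 2 and in 1.80 to 2.57% in the others. Excitatory nuclei of BCAS 2 had a median of 8885 UMIs, below control 2 (9088 UMIs) and above the others, and cortical types made up 47.8% of them against 40.9 to 48.2% in the others. The part of depth and of the mix of nuclei in the values of BCAS 2 was not tested. A mean over the 4 cortical types with equal weight gave 16.8 CPM of Arc in BCAS 2, 28.2 in BCAS 1 and 29.5 to 49.5 CPM in the other libraries.

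**Figure D5:**
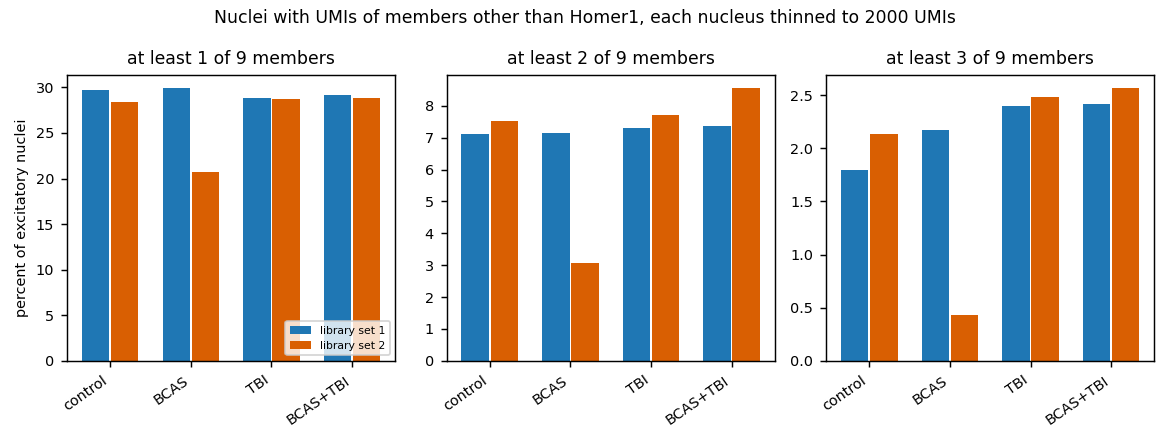
Percent of excitatory nuclei (y axes, from 0) with UMIs of at least 1, 2 or 3 of the 9 genes other than Homer1, by group and library set, with every nucleus thinned to 2000 UMIs. BCAS of set 2 is the lowest bar in each panel, at 3.06% for at least 2 genes.

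Other genes of the same response were read from lists. Of 24 other rapid activity-induced genes 23 were tested in excitatory nuclei, and none passed in any contrast. In BCAS against control 20 were below and 3 above 0, with a median of -0.22 against -0.01 over all genes. Of all genes in the class 46.8% were above 0. In BCAS+TBI against BCAS 21 of the listed genes were above and 2 below, with a median of 0.40 against 0.01. There 51.4% of all genes were above 0. Junb, a partner of Fos in AP-1, measured 37.7 and 14.2 CPM in BCAS 1 and 2 beside 49.6 and 29.5 CPM in the controls. Btg2, an antiproliferative gene, measured 30.2 and 8.62 CPM beside 26.9 and 14.2 CPM, so it was lower only in set 2. BCAS 2 was the lowest library for both genes. In set 1 about as many listed genes were higher as lower in BCAS 1 than in control 1. In set 2 most were lower in BCAS 2 than in control 2, so the lower fitted values came largely from BCAS 2. Rheb, Fbxo33 and Per1, the other abundant genes of the list, ranged from 59.9 to 75.1, from 50.6 to 56.6 and from 27.0 to 33.4 CPM over the 8 libraries.

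Of 14 late activity-induced genes none passed. The most abundant were Sorcs3 (a sorting receptor), Nrn1 (a membrane-anchored neurite growth factor), Scg2 and Vgf (precursors of secreted peptides) and Pcsk1 (a prohormone convertase). In BCAS against control 8 were below and 6 above 0, with a median of -0.01. Of 20 genes that carry activity to the nucleus, such as the glutamate receptor subunits Grin2b and Grin2a, the phosphatase Ppp3ca, Mef2c and the calcium channel Cacna1c, 11 were below and 9 above 0. Of 14 genes for partners of the encoded proteins, such as Dlgap1, Grm5, Shank2 and Arnt2, 7 were below and 7 above 0. No gene of either list passed.

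The genes whose pattern over the 8 libraries was most like the mean of the 10, with both centred within library set, were Nvl (Pearson r = 0.98), Itfg2, Srsf4, Fbxo10, Cox11 and Btg2 (0.94), of 6502 genes compared. BCAS 2 was the lowest library of all 6, which the choice itself favours. The centred mean log2 CPM of the 10 was lowest there, at -0.47. Among the 10 genes themselves, each against the mean of the other 9, r ranged from 0.80 to 0.93 for Arc, Egr1, Egr3, Egr4, Npas4, Nr4a1 and Dusp1, and was 0.51 for Homer1, 0.28 for Nr4a3 and 0.23 for Nr4a2. These correlations describe 8 libraries in which 1 had low values for most of the genes.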

How the data were processed

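Single-nucleus 3' RNA libraries were deposited as raw UMI counts per gene and barcode, and the file headers name Cell Ranger 7.0.0 as the authors' counting software. Builds GRCm38 and mm10 and the tool Seurat stand in the submitters' processing notes. Whether introns were counted, and the time of collection, are not given in the sources used here.

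Of 53390 barcodes, 4922 had under 500 UMIs, under 300 genes or over 5% of UMIs from mitochondrial genes and were dropped. Scrublet's automatic threshold marked 741 barcodes, 734 of them in 1 library, so the top 6% by score in each library were removed (2908). Neuron types were gated on marker UMIs. Counts were summed per library and type and fitted with edgeR 4.0.16 in R 4.3.3 by its two-sided quasi-likelihood test, after TMM scaling and the filterByExpr filter (minimum count 10), with a 4-level group term and Benjamini-Hochberg adjustment over all 44129 (broad classes) or 91338 (subtypes) class-gene pairs at 0.05. Alternatives were the library set as a block, DESeq2 1.42.0, other filters, gates and normalization, and leaving out each library. The scripts were tested on simulated data.

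The 10 genes and the 4 lists were chosen with earlier results of these data known. Named genes are the 10, listed genes that pass, otherwise up to 5 per list by CPM in excitatory nuclei, and the 6 genes most like the 10 by correlation. 1 gene that this rule names is not reported here. Replicate numbers did not pair the libraries: same-numbered libraries had deviations correlated from -0.76 to 0.68. P-values of the group contrasts rest on an estimate of spread shared by all 8 libraries, with 2 libraries a group. Those between neuron types rest on the spread of the within-library difference over the 8 libraries.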

Additional observations from a re-analysis of the deposited data

Results flagged for a closer look

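With 2 libraries in each group, no single library could be tested as standing apart from its own group. The change with TBI went one way in both library sets without BCAS and the other way in both sets with BCAS for the following genes and types, given with the interaction on the log2 scale. In excitatory nuclei this held for Arc (1.03), Homer1 (0.51). In inhibitory nuclei this held for Dusp1 (0.32). In CA pyramidal nuclei this held for Nr4a1 (-0.96). In layer 5 nuclei this held for Nr4a3 (-0.74), Dusp1 (1.45), Homer1 (0.30). In layer 6 corticothalamic nuclei this held for Arc (1.22). In mid-layer nuclei this held for Arc (1.85), Egr4 (1.55), Nr4a1 (0.67), Homer1 (0.96). In upper-layer nuclei this held for Arc (1.59), Homer1 (0.58). Each of these differences was tested by the interaction in edgeR, and none passed the adjusted threshold of 0.05 without or with the library set as a block. The share of all genes with this pattern was not counted, so the length of this list is not read as a result. No group exceeded the controls in glial or vascular nuclei by the required 2-fold with at least 10 UMIs of one of the 10 genes in each library. Some of these classes held few UMIs, for example 60018 in endothelial nuclei of BCAS 1. Genes at low levels could not reach 10 UMIs there, so a rise in them could have been missed.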

How the results depend on the processing

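Over all genes, no class-gene pair passed in any of the 6 contrasts in edgeR without a block, with DESeq2, with RLE scaling, or with a replicate block. Counts below are in the order BCAS against control, BCAS+TBI against BCAS, interaction, TBI against control, BCAS+TBI against control and BCAS+TBI against TBI. With the library set as a block, 0, 2, 0, 1, 1 and 1 pairs passed in the broad classes and 25, 10, 31, 24, 5 and 17 in the subtypes. With no filter on low counts, 14, 10, 19, 1, 8 and 6 pairs passed in the broad classes and 39, 17, 21, 11, 23 and 9 in the subtypes. Leaving out 1 library gave 0 without the block, and with it 1 to 53, 3 to 21, 1 to 39, 2 to 39, 1 to 27 and 1 to 14 in the broad classes and 5 to 72, 7 to 100, 6 to 139, 22 to 118, 20 to 59 and 24 to 129 in the subtypes. The numbers given to replicates did not pair the libraries, and with them as a replicate block Arc in excitatory nuclei was -0.88 in BCAS against control. For the 10 genes, 54 log2 changes were examined: 606 of 606 values under the alternatives that kept every library had the same direction and side of the threshold, as did 818 of 864 with 1 library left out, while 15 passed and 31 turned direction. The log2 values that turned ranged as follows over both fits with 1 library left out. In BCAS against control (mid-layer nuclei) they were -1.01 to 0.31 for Egr1. In BCAS against control (upper-layer nuclei) they were -0.76 to 0.13 for Egr1. In BCAS+TBI against BCAS (upper-layer nuclei) they were -0.039 to 0.87 for Egr1. In BCAS against control (excitatory nuclei) they were -0.73 to 0.027 for Egr3, -1.14 to 0.27 for Egr4, -0.75 to 0.26 for Homer1, -1.05 to 0.025 for Npas4, -0.043 to 0.34 for Nr4a2 and -0.020 to 0.35 for Nr4a3. In the interaction (excitatory nuclei) they were -0.024 to 1.09 for Homer1, -0.14 to 0.95 for Npas4, -0.037 to 0.52 for Nr4a1, -0.36 to 0.040 for Nr4a2 and -0.50 to 0.10 for Nr4a3. In BCAS+TBI against BCAS (excitatory nuclei) they were -0.018 to 1.07 for Npas4, -0.11 to 0.21 for Nr4a2 and -0.12 to 0.24 for Nr4a3. All 15 that passed did so with the block, 13 for Arc and 2 for Egr1. They arose without BCAS 1, control 1, TBI 1, TBI 2 or BCAS+TBI 2, and none without BCAS 2. Each such fit leaves a group with 1 library, so they are not read as results. With the block, Arc in layer 6 corticothalamic nuclei in BCAS against control was -1.49 without BCAS 1 and -0.73 without BCAS 2. The cause was not tested. Few UMIs limit Egr4, Dusp1 and every gene in Vip, Sst and Drd2 nuclei.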
